A study of Caenorhabditis elegans with 2 samples.

Results

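The aminoacyl-tRNA synthetase genes of *Caenorhabditis elegans* were examined for binding of LIN-35, the single retinoblastoma-like pocket protein of the worm. Members were taken by name from the protein-coding genes of the WBcel235 annotation, as genes named with a single letter, "ars-" and a number (as in *lars-1*). The rule found 32 genes among 19985 protein-coding genes. The RefSeq product name of each of the 32 held the words tRNA ligase or synthetase. Their initial letters covered 20 amino acids, with 1 gene for 9 of them, 2 genes for 10 and 3 genes for phenylalanine. All 32 lay on the autosomes, 9 on chromosome I, 5 on II, 6 on III, 8 on IV and 4 on V, and 0 on X.

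Each synthetase recognises an amino acid and its matching tRNAs and joins them, so that the ribosome can read the charged tRNA. Animals make proteins in the cytosol and in mitochondria, and the synthetases of both compartments are encoded in the nucleus. LIN-35 is the pocket protein of the DREAM complex, which represses transcription of many genes, and can contact DNA through an E2F-DP pair and through LIN-54, whose binding site is the cell cycle genes homology region (CHR).

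Chromatin was immunoprecipitated from whole worms of strain YL402 at the young adult stage, of mixed sex and unknown age. The strain carries *unc119(ed3)III* and the insertion vrIs56, which holds an *unc-119* (+) copy and LIN-35 joined to GFP and FLAG under the *pie-1* promoter with the *lin-35* 3′ UTR. This promoter is active in the germline, so binding by LIN-35 made from its own promoter in other tissues was not measured. There were 2 libraries, biological replicates 2 and 3, both of this genotype, and no group to compare them with.

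The data are lists of regions, each with a summit and a signal value given by the authors, whose scale is not stated. Candidate regions numbered 20291 in replicate 2, 30000 in replicate 3 and 30000 in the pool of both, and 396 pooled regions passed the authors' threshold on the irreproducible discovery rate (IDR). A gene was counted as having a region when a summit lay within 1000 bp of its start. Ranks are by signal within a list, with rank 1 the highest, and signals were compared only within a list. No read counts entered the values given here and the depth of the libraries is unknown. The exact Clopper-Pearson 95% intervals below cover only the number of genes counted.

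No aminoacyl-tRNA synthetase gene had a thresholded LIN-35 peak near its start. The count was 0 of 32, which allows a share of up to 9.38%, while 505 of all 19985 protein-coding genes had one (2.53%). A share of this size among 32 genes could not be told from 0. The nearest thresholded summit to any member start was 5232 bp from that of *iars-2*, which encodes an isoleucine--tRNA ligase, and the median distance over the 32 starts was 70399.5 bp. Each library alone gave the same count. Among the 396 highest-ranked regions of replicate 2, 0 members had one within 1000 bp, compared with 2.28% of all genes, and among those of replicate 3 the count was also 0, compared with 2.17%. Below the threshold, 1 member was reached by the 1000 highest-ranked pooled regions (3.12%, interval 0.0791% to 16.2%; all genes 5.09%) and 3 by the 2000 highest-ranked (9.38%; all genes 7.98%). At 5000 regions the count was 7 (21.9%; all genes 14.9%). Replicate 2 alone reached 0 members with its 1000 highest-ranked regions (all genes 4.72%), 3 with 2000 (all genes 7.43%) and 7 with 5000 (all genes 14.4%). Replicate 3 reached 1 with 1000 (all genes 3.99%), 1 with 2000 (all genes 6.53%) and 4 with 5000 (all genes 13.1%).

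**Figure D1:**
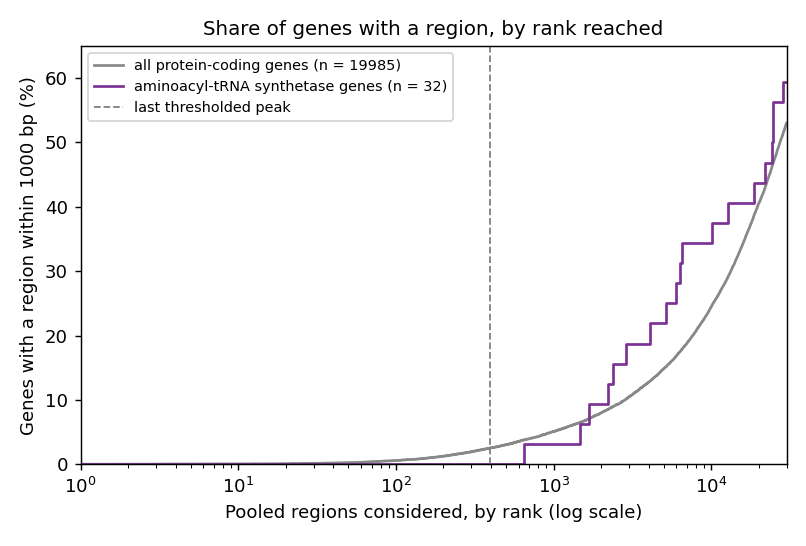
Share of genes with a pooled region within 1000 bp of the start (vertical axis, percent) as more regions are taken in order of rank (horizontal axis, log scale), for the 32 aminoacyl-tRNA synthetase genes and for all 19985 protein-coding genes. The synthetase line leaves 0 at rank 645, to the right of the dashed line at rank 396, and ends at 59.4% compared with 53.0% for all genes.

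Weak candidate regions were common at these genes. A pooled region lay within 1000 bp of 19 of the 32 starts (59.4%, interval 40.6% to 76.3%), close to the share of all genes (53.0%). The best region of these 19 had a median rank of 6320 and a median signal of 12.2, compared with 11190 and 10.1 for the 10591 genes of the whole annotation with a pooled region. In replicate 2 the median rank was 7015.5 for members and 7724 for all genes with a region, and in replicate 3 it was 9081 and 11941. The difference was smallest in replicate 2, and none of the 3 was tested. The highest member signal was 23.4 and the lowest 6.59, while the weakest thresholded peak had 29.96. Candidate lists were made as input for the IDR step and hold background regions too, so a region in them is not a peak.

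The highest-ranked region belonged to *rars-1* (WBGene00004679), the cytoplasmic arginine--tRNA ligase. It spanned 4918019 to 4918314 on chromosome III (ce11), with rank 645 and signal 23.4 in the pooled list. In replicate 2 the best region had rank 2105 and signal 8.09, and in replicate 3 it had rank 3451 and signal 10.3. The summits in the replicates were 23 bp apart, the smallest gap among the members with a region in both libraries. The pooled summit was intergenic and 990 bp upstream of the *rars-1* start, just inside the distance limit. It lay only 159 bp from the start of *rpb-8*, which encodes a subunit shared by the nuclear RNA polymerases. *rpb-8* lies on the same strand and ends 66 bp before *rars-1* begins, so the region is closest to the start of the upstream gene.

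The *ears-2* region (WBGene00001338) covered the starts of *ears-2* and its neighbour *uncp-18*, with the pooled summit between them. *ears-2* encodes the mitochondrial, nondiscriminating glutamyl-tRNA synthetase. The region spanned 390357 to 390652 on chromosome IV, with its summit 37 bp upstream of the *ears-2* start and 55 bp from that of *uncp-18*. Its pooled rank was 1465 (signal 17.9). Replicate 2 gave rank 1497 (signal 9.11) with a summit 48 bp upstream, and replicate 3 gave rank 22362 (signal 5.51) with a summit 97 bp upstream. Both of these summits were nearer to the start of *uncp-18*, at 44 bp in replicate 2 and at 5 bp, in its 5′ UTR, in replicate 3. The libraries thus placed overlapping regions there, high in replicate 2 and in the lower part of the replicate 3 list.

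*qars-1* (WBGene00001336), a glutamine--tRNA ligase, had a pooled region from 15013630 to 15013925 on chromosome IV with rank 1677 and signal 17.3. Its summit was intergenic, 595 bp upstream of the *qars-1* start and 257 bp from that of Y41E3.7. A replicate 2 region of rank 10054 (signal 3.94) overlapped it, and the best replicate 2 region of the gene (rank 6940, signal 4.9) was elsewhere, in an intron 788 bp downstream of the start. Replicate 3 had no region within 1000 bp. This region therefore had a counterpart in a single library.

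*gars-1* (WBGene00001744), the glycine--tRNA ligase gene, had its pooled region inside the gene, from 5163308 to 5163603 on chromosome III, with the summit in an intron 171 bp downstream of the start (rank 2870, signal 15.1). The replicate 2 region (rank 6101, signal 5.23) had its summit 178 bp downstream. The best replicate 3 region (rank 8159, signal 8.18) was 573 bp downstream and did not overlap the pooled region.

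Sequence at or near these summits is shown because the E2F and CHR motifs are the known contacts of the DREAM complex. Each line gives 30 bases of the forward strand of the WBcel235 reference (RefSeq assembly, the same build as ce11), centred on the motif nearest the summit, or on the summit where neither motif lay within 100 bp of it. Capitals mark a CHR motif. The E2F search took the letters TTCCCGC as well as the forms TTCGCGC and, further, the letters TTGCCGC along with the form TTGGCGC on both strands. The CHR search took the letters TTCGAA, which read the same on both strands, or else the letters TTTGAA on both strands. No E2F form contains a CHR form.
rars-1, chrIII:4918166-4918195: ttgcgcgggcaTTCAAAttggggtttccgg
ears-2, chrIV:390491-390520: gcaatgcgccgcgcggcttttcgcaaggct
qars-1, chrIV:15013845-15013874: ttgatttttacTTCGAAttgtgatctttaa
gars-1, chrIII:5163442-5163471: gacaacgagatcatgcgcgagtgtaaaaag

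The *rars-1* motif was the reverse complement of TTTGAA, 13 bp from the summit, and the *qars-1* motif was 81 bp from it. None of these 4 summits had a match to the E2F letters within 100 bp.

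The other 2 members of the 6 with the best pooled ranks lie on chromosome I. *fars-1* (WBGene00001497), a phenylalanine--tRNA ligase gene, had a region from 6213836 to 6214131 with its summit in a coding exon 701 bp downstream of the start and 681 bp from the start of T08B2.15 (pooled rank 2213, signal 16.1). Replicate 3 placed a summit at the same base with rank 935 and signal 13.8, its best rank at any member. Replicate 2 had no region within 1000 bp of *fars-1*. *aars-2* (WBGene00000197), the cytoplasmic alanine--tRNA ligase gene, had a region from 3982884 to 3983179 with an intergenic summit 151 bp upstream of the start (pooled rank 2364, signal 15.8). It was the single member with an E2F match within 100 bp of its best pooled summit. The overlapping regions of the libraries were near the ends of their lists, at rank 20023 (signal 2.04) in replicate 2 and rank 25943 (signal 5.08) in replicate 3. The best replicate 2 region of *aars-2* was another, in a coding exon 848 bp downstream (rank 12405, signal 3.37).

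**Figure D2:**
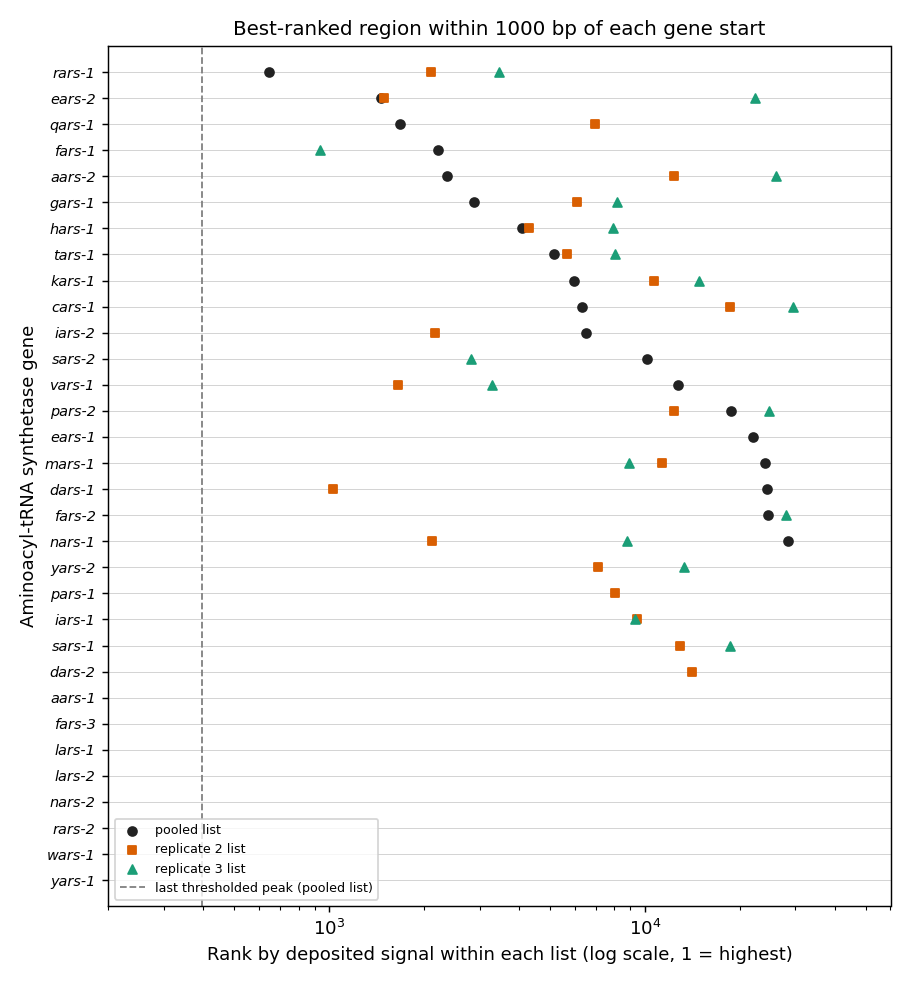
Best-ranked region within 1000 bp of the start of each of the 32 genes, in the pooled list (circles), the replicate 2 list (squares) and the replicate 3 list (triangles); the horizontal axis is the rank by deposited signal on a log scale. No symbol lies left of the dashed line at rank 396, the last thresholded peak, and 8 genes have no symbol.

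Most of the genes named cytoplasmic had candidate regions in both libraries, though often at different places. RefSeq product names called 10 members cytoplasmic and 4 mitochondrial, and gave no compartment for 18. Of the 10 cytoplasmic genes, 7 had a pooled region (all genes 53.0%) and 9 a replicate 2 region (all genes 40.1%). A region in each library was present at 8 (interval 44.4% to 97.5%, all genes 24.1%). The 8 were *rars-1*, *aars-2*, *cars-1* (cysteine), *mars-1* (methionine), *nars-1* (asparagine), *tars-1* (threonine), *iars-1* (isoleucine) and *sars-1* (serine). Among them, regions of the libraries overlapped at *rars-1*, *aars-2* and *mars-1* alone. The best summits of the libraries were over 1000 bp apart at *aars-2*, *cars-1*, *nars-1*, *sars-1* and *tars-1*. Over all genes, 13.1% had overlapping regions of both libraries, and the spacing of summits was not counted. Of the 4 mitochondrial genes, *ears-2* and *pars-2* (proline) had a region in every list, and *aars-1* (alanine) and *rars-2* (arginine) had none in any. Of the 18 genes with no stated compartment, 10 had a pooled region (55.6%; all genes 53.0%) and 5 a region in each library (27.8%; all genes 24.1%), both near the share of all genes. The difference between compartments was not tested, and most members had no compartment in their name.

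Over all members, 20 had a region in replicate 2 (62.5%, interval 43.7% to 78.9%; all genes 40.1%) and 18 in replicate 3 (56.2%, interval 37.7% to 73.6%; all genes 53.0%). All 3 lists had a region at 12 members (37.5%, interval 21.1% to 56.3%; all genes 20.8%). A region in both replicate lists was present at 15 (46.9%, interval 29.1% to 65.3%; all genes 24.1%). The count was 7 when regions of the 2 lists had to overlap (21.9%; all genes 13.1%). These 7 were *aars-2*, *ears-2*, *kars-1*, *mars-1*, *pars-2*, *rars-1* and *vars-1*. Without that condition it was 7 at 500 bp (all genes 11.4%), 3 at 250 bp (all genes 4.82%) and 9 with each region given to the nearest start (3794 of all 19985 genes). Where the best regions of the 15 genes were compared, the summits were under 250 bp apart at 5 and over 1000 bp apart at 6, namely *aars-2*, *cars-1*, *hars-1*, *nars-1*, *sars-1* and *tars-1*. This spacing was not counted over all genes, so it describes the members only.

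At several members, a region that ranked well in 1 library was weak or absent in the other. Good ranks were not particular to the members. The 2000 highest-ranked regions reached 9.38% of members in replicate 2 (all genes 7.43%) and 3.12% in replicate 3 (all genes 6.53%). The best replicate 2 rank of any member was 1027 (signal 10.5) at *dars-1*, the cytoplasmic aspartate--tRNA ligase gene, in an intron 151 bp downstream of the start. Replicate 3 had no region within 1000 bp there, and the pooled region of the gene was a different one, 446 bp upstream inside a coding exon of *ctr-9* (rank 24463, signal 7.17), overlapped by a second replicate 2 region of rank 1825 (signal 8.49). *nars-1* had rank 2124 in replicate 2, 115 bp downstream of the start, where its pooled region (rank 28360, signal 6.59) was also found, whereas its best replicate 3 region (rank 8793) was 971 bp upstream in a coding exon of *nduf-6*. At *iars-2* the same intronic base, 449 bp downstream, was the summit in replicate 2 (rank 2171, signal 8.01) and in the pool (rank 6532, signal 12.1), and replicate 3 had no region. *sars-2*, a serine--tRNA ligase gene, showed the opposite, with a summit 126 bp upstream in replicate 3 (rank 2819, signal 10.8) and in the pool (rank 10125, signal 10.5) and no region in replicate 2. *vars-1* (valine) had ranks of 1650 in replicate 2 and 3287 in replicate 3, but the first was 266 bp upstream, in the 3′ UTR of *oma-2*, and the other 259 bp downstream in an intron. Its pooled region had rank 12705 (signal 9.66).

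The remaining members with a pooled region had ranks from 4081 to 24534. *hars-1* (histidine) had rank 4081, with a summit 620 bp upstream in an intron of T11G6.2, and a replicate 3 region with its summit 3 bp away (rank 7956). *tars-1* had 5171, *kars-1* (lysine) 5962 and *cars-1* 6320, each with the pooled summit 170 to 320 bp downstream of the start. *pars-2* had rank 18698, *ears-1* (glutamate) 21936, *mars-1* 24101 and *fars-2* (phenylalanine) 24534. The *mars-1* summit was 19 bp upstream of the start, and regions of both libraries overlapped it (rank 11312 in replicate 2 and 8886 in replicate 3). The *ears-1*, *fars-2* and *pars-2* regions were overlapped by no region of either library, 3 of the 19 best pooled regions (15.8%; all genes 17.4%). A further 4 of the 19 were overlapped in both libraries (21.1%; all genes 22.2%), those of *aars-2*, *ears-2*, *mars-1* and *rars-1*.

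Another 5 members had a region in a replicate list but not in the pool. *iars-1*, *sars-1* and *yars-2* (tyrosine) had one in each library, with the summits 634, 1217 and 489 bp apart, and *dars-2* (aspartate) and *pars-1* (proline) had one in replicate 2 alone. The replicate 3 summit of *iars-1* (rank 9276) was 1 bp inside the gene. No region in any of the 3 lists lay within 1000 bp of the starts of 8 of the 32 members (interval 11.5% to 43.4%; all genes 25.8%). These were *aars-1*, *rars-2*, *wars-1* (tryptophan, cytoplasmic), *lars-1* and *lars-2* (leucine), *nars-2*, *yars-1* and *fars-3*, which encodes the beta subunit of phenylalanine--tRNA ligase.

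**Figure D3:**
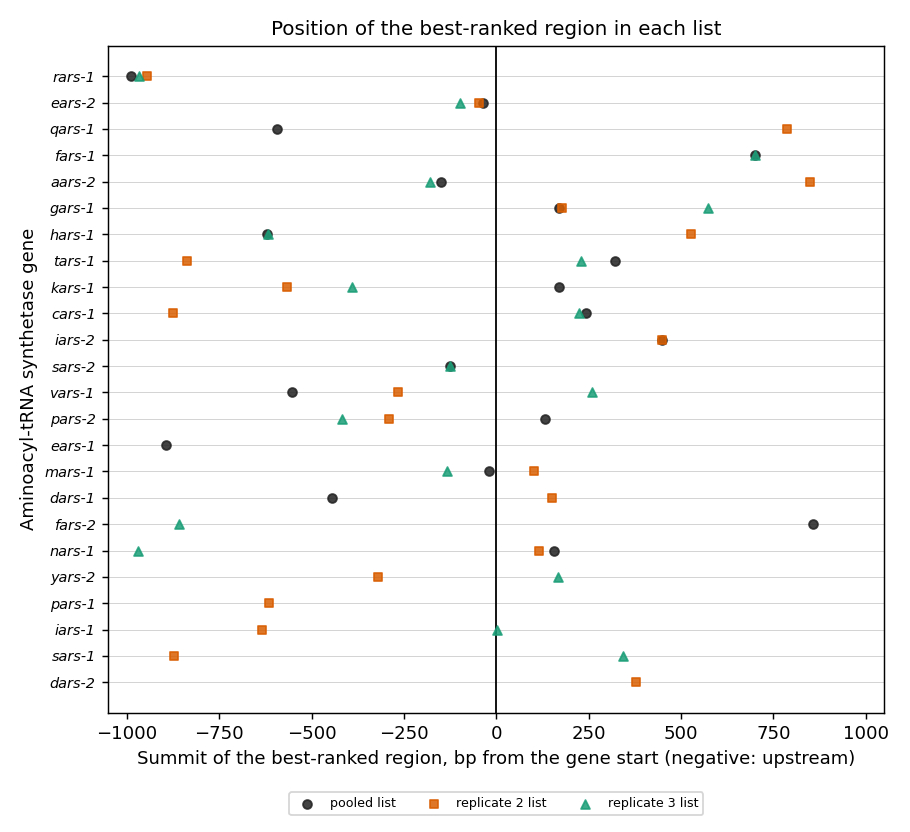
Distance in bp of the summit of the best-ranked region from the gene start (horizontal axis, negative values upstream) for the 24 genes with a region in at least 1 list; symbols mark the pooled, replicate 2 and replicate 3 lists. Symbols of a gene lie close together at *rars-1*, *ears-2* and *iars-2* and lie on opposite sides of the start at genes such as *tars-1* and *cars-1*.

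The side of the start on which the regions lay was near that of candidate regions in general. The best pooled summit was upstream of the gene start at 10 of 19 members (52.6%, interval 28.9% to 75.6%; all genes with a pooled region 56.3%), and at 5 of 14 with a limit of 500 bp (all genes 59.6%). It was intergenic at 6, in an intron at 6 and in a coding exon at 7, and inside the member gene itself at 9. The distance from the start was up to 250 bp at 9 of 19 (47.4%, interval 24.4% to 71.1%; all genes 30.2%) and up to 500 bp at 12 (63.2%; all genes 56.3%). A tRNA, snoRNA, snRNA or rRNA gene lay within 500 bp of 0 of these summits, and of 0 of those in either replicate list. The counts by intergenic, intron and exon place and by small RNA gene were not made over all genes. They describe the members only.

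Neighbouring genes shared many of these regions. A second protein-coding start lay within 1000 bp of the best pooled summit at 11 of 19 members (57.9%, interval 33.5% to 79.7%; all genes 30%), and within 500 bp at 5 (all genes 17.6%). The member's own start was the nearest at 13 of 19 (68.4%, interval 43.4% to 87.4%; all genes 84.7%). A protein-coding gene on the same strand ended within 500 bp upstream of 11 of the 32 members (34.4%, interval 18.6% to 53.2%; all genes 18.1%). A pooled region was present at 4 of those 11 (36.4%, interval 10.9% to 69.2%, all such genes 55.6%). It was present at 15 of the other 21 (71.4%, interval 47.8% to 88.7%, all such genes 52.4%). In *C. elegans* such close neighbours are often transcribed together as an operon, from a promoter before the upstream gene, so the annotated start of the downstream gene need not be a site of transcription initiation. Whether this bears on the counts here was not tested.

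The E2F motif was counted at the best regions of the synthetase genes. It was present within 100 bp of the best pooled summit at 1 of 19 members (5.26%, interval 0.133% to 26.0%), compared with 10.4% of the 10591 genes with a pooled region, 7.80% of all pooled regions and 49.7% of the 396 thresholded peaks. The CHR motif was present at 9 of 19 (47.4%, interval 24.4% to 71.1%), compared with 54.3% of those genes, 52.3% of pooled regions and 71.7% of thresholded peaks. The promoters, taken from 250 bases before to 50 after each start, gave like values without use of any region. An E2F match was found at 1 of 32 (3.12%, interval 0.0791% to 16.2%; all genes 9.20%), again *aars-2*, and a CHR match at 20 of 32 (62.5%, interval 43.7% to 78.9%; all genes 68.9%). The intervals of both motifs held the share of all genes. In replicate 2 the E2F motif was found at 2 of 20 best summits, those of *cars-1* and *pars-2*. In replicate 3 it was found at 2 of 18, those of *aars-2* and *vars-1*. These replicate counts were not made over all genes and describe the members only.

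Genes that act with the synthetases were set beside them, by lists of names written from memory and chosen for their roles. Genes of tRNA processing and modification had a thresholded peak at 0 of 22 (which allows up to 13.6%; all genes 2.53%) and a pooled region at 13 (59.1%; all genes 53.0%). This list held 28 names, of which 6 did not match the annotation and were not counted. A pooled region was present at 8 of 14 genes of RNA polymerase III transcription (57.1%) and at 8 of 12 genes that sense amino acids or uncharged tRNA (66.7%). Of the genes for RNA polymerase III transcription, which makes tRNA, 1 of 14 had a thresholded peak (7.14%, interval 0.181% to 33.9%; all genes 2.53%). It was *mafr-1*, the worm counterpart of the polymerase III repressor Maf1, with rank 231 in the pool (signal 41.3), 313 in replicate 2 and 256 in replicate 3, 276 bp upstream of the start. Of the genes that sense amino acids or uncharged tRNA, 1 of 12 had one (8.33%, interval 0.211% to 38.5%). It was *gcn-1*, a ribosome-associated activator of the uncharged-tRNA sensor kinase GCN-2, with rank 164 in the pool (signal 50.9), 291 in replicate 2 and 86 in replicate 3, 270 bp upstream of the start.

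Other groups of protein synthesis genes were counted by the same definition, beside 2.53% of all genes. Cytosolic ribosomal protein genes had one at 17 of 78 (21.8%, interval 13.2% to 32.6%), initiation and elongation factor genes at 5 of 31 (16.1%, interval 5.45% to 33.7%) and mitochondrial ribosomal protein genes at 2 of 70 (2.86%, interval 0.348% to 9.94%), the last near the share of all genes. A pooled region was present at 72 of 78, 26 of 31 and 50 of 70 of these genes in the same order (all genes 53.0%). Most of the thresholded peaks counted here were shared with other genes, and a shared peak cannot be assigned to a single gene. Another start was nearer at *rps-12* (173 bp, and 120 bp for *ska-3*) and *eef-1A.1* (399 bp, and 142 bp for *rfc-4*), among others. *rpl-41.1* and *rpl-41.2* were both counted for the same peak. No second start lay within 1000 bp at *rpl-3*, *rpl-24.2*, *rpl-35*, *rps-4*, *eif-3.B*, *eif-3.C* or *mrpl-47*. At all the other counted genes there was one. The differences between these groups and the synthetase genes were not tested.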

How the data were processed

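Each deposited list gives regions called by the authors with a summit and a signal value, in narrowPeak column order. Per the text deposited with the samples, regions were called against a control alignment, in each library and in the pool; the pooled and replicate lists were the input to the thresholded one. Aligner, peak caller and IDR cutoff: not given in the sources used here. Lists on ce11 were used, and those on ce10 were not, since the annotation and sequence were WBcel235. Gene starts, exons and UTRs came from Ensembl release 115, and product names and sequence from RefSeq.

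From the lists, regions were ranked by signal, and summits (1-based) within 1000 bp of the outermost start of a gene were assigned to it, also when shared. Members, gene lists, motifs and limits were chosen with earlier results of these data known, and 6 list names did not match the annotation. All members were named; the 6 with the best pooled rank were described in full. No test was run. With 1 group of 2 libraries, intervals and limits (3 counts over the number of genes for a count of 0) measure counting error, and depth was not used. The pairing of genes with regions and the motif search were checked on artificial data. Added after the data were seen were the promoter motifs, the upstream neighbours, the 5000-region count and a distance of 2000 bp. Calculations ran in Python 3.11.15 (libraries pandas 2.3.3, numpy 2.4.6, matplotlib 3.10.9 and, for intervals, scipy 1.17.1).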

Additional observations from a re-analysis of the deposited data

How the results depend on the processing

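The count of 0 synthetase genes with a thresholded peak was unchanged at 500, 250 and 2000 bp (the last added after seeing the data), with any transcript start, with the nearest start only, with the 198 strongest peaks, and with either library alone (0 to 0). It was 1 with the 1000 and 3 with the 2000 highest-ranked pooled regions. Genes with a candidate region, 19, numbered 10 at 250 bp (all genes 19.7%, from 53.0%) and 18 to 20 with 1 library. Genes with a region in both libraries, 15, numbered 7 at 500 bp, 3 at 250 bp, 9 with the nearest start only and 7 with overlapping regions. Upstream summits, 10 of 19, were 5 of 14 at 500 bp, and shared starts, 11, were 5 at 500 bp. The E2F count, 1 of 19 (all genes 10.4%), was 0 of 19 within 50 bp (all genes 7.06%) and 2 of 14 at 500 bp (all genes 11.8%). The CHR count, 9 of 19 (all genes 54.3%), was 4 of 19 within 50 bp (all genes 33.0%). Genes with no stated compartment and a pooled region, 10 of 18 (all genes 53.0%), numbered 6 of 18 at 500 bp (all genes 34.4%). The median rank, 6320 (all genes 11190), was 9081 without replicate 2 (all genes 11941) and 7015.5 without replicate 3 (all genes 7724); the lists differ in length, so these ranks are read only against all genes of the same list. Of 41 alternatives, 28 stayed within 1.5 times the count, or within the quartiles of the rank, and 13 moved. For the counts by distance and overlap, the settings themselves keep fewer regions. No paired analysis was possible because the samples form 1 group. Depth is unknown, so weak regions cannot be weighed by read number.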

Other observations

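A total of 3 further genes that RefSeq names as tRNA ligases fall outside the naming rule. *glp-4* encodes the valine--tRNA ligase known for its temperature-sensitive mutant without a germline. It had a pooled region 456 bp upstream of its start (rank 11981, signal 9.88), overlapped by a replicate 3 region (rank 5435, signal 9.18), with no region within 1000 bp in replicate 2. The intergenic summit was nearer to the start of Y87G2A.16, at 274 bp. *prx-10*, whose products in RefSeq include a mitochondrial tryptophan--tRNA ligase, had a pooled region 959 bp upstream (rank 6451, signal 12.1) and a replicate 2 region (rank 1956, signal 8.31), both with the summit in a coding exon of *mrps-26*, and none in replicate 3. Y105E8A.20, named *mars-2* in RefSeq and the mitochondrial methionine--tRNA ligase by product name, had no region in any list. None of the 3 had a thresholded peak within 1000 bp, the nearest being 27227 bp from the start of Y105E8A.20.

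The distance limit decided a few values. The *rars-1* region, at 990 bp, was the last inside it, and the next regions outside were at *nars-1* (1036 bp, rank 3784, signal 14.1) and *gars-1* (1145 bp, rank 3307, signal 14.6). At 500 bp, *rars-1* would lose its rank of 645.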
